A study of Mus musculus with 12 samples.

Results

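Genes of cholesterol synthesis and of sterol uptake and regulation, some of them targets of the transcription factor SREBP2, were followed in livers of mouse offspring. Both the offspring's own diet and the mother's diet were varied. The set holds 28 genes, chosen by symbol and matched to the Ensembl identifiers of the deposited table, and all 28 were among its 12086 measured genes. The set was chosen with earlier results of these data known, so its shares beside those of all genes are descriptions and not tests. It was read as 3 parts, the early mevalonate steps with 8 genes, the late sterol steps with 11 and sterol uptake and regulation with 9. Livers came from wild-type male C57BL/6 mice killed while fasted at 12 weeks of age (postnatal day 84). In OO the dam and the offspring ate the obesogenic diet, and in CO only the offspring did. In OC only the dam ate it, and in CC both ate standard chow. The obesogenic diet held 20% lipid and 10% simple carbohydrate and came with sweetened condensed milk, which holds 55% simple carbohydrate, 8% lipid and 8% protein, and the chow held 3% lipid and 7% simple carbohydrate. Dams kept their diet until weaning on day 21, when the sons were assigned to either diet at random. The table holds 3 libraries each of OO, OC and CC and 2 of CO, called here by group and number. The labels list 3 animals a group and do not say which litter an animal came from, so p-values measure the spread between these libraries, which shared mothers could narrow.

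Cholesterol is built from acetyl-CoA by way of mevalonate, isoprenoids and squalene, and the last steps turn lanosterol into cholesterol. SREBP2 (gene Srebf2) is a membrane-bound factor of the endoplasmic reticulum. When sterols are scarce, the escort protein Scap carries it to the Golgi, where proteases free its active part, and Insig1 and Insig2 hold Scap back when sterols are plentiful. The liver makes much of the body's cholesterol and expresses the whole pathway in hepatocytes.

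Hsd17b7, a 3-ketosteroid reductase of the late sterol steps, was 1.83 times lower in livers of mice fed the obesogenic diet, and Tm7sf2, a sterol C14-reductase, 2.02 times lower, both as the average offspring diet effect, the mean of OO minus OC and CO minus CC. They were the only members past the threshold, an adjusted p under 0.05 over all 12086 genes in limma's test, in any of 6 comparisons. Most other pathway genes had a lower fitted level in OO than in the OC libraries without passing the test one by one. A single library, OC.1, held the highest value of 21 of the 28 genes, a rank that was not counted over all genes.

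Values are scaled counts, close to CPM, and a level cannot be compared between genes because gene length is not taken into account. Values of a group are listed in the order of its library numbers. The reads behind a library, recovered from the values, ran from 3976158 in OO.1 to 27837609 in OO.0, and 1 read was worth 0.0334 to 0.276 scaled counts. These bulk values cannot tell fewer cells of a type from less RNA per cell. Hepatocyte markers were abundant in every library, with summed values of 69208 to 93185 for 11 of 12 listed genes. Some libraries stood apart. Acute phase genes, 20 of 20 listed, summed to 18912 to 22901 in OO, 26434 and 75700 (CO.1) in CO, 14989, 15804 and 47463 (OC.1) in OC, and 17386 to 19204 in CC. Exocrine pancreas markers, 14 of 16 listed, summed to 16.3 to 140 in OO, 103 and 4187 (CO.1) in CO, 25.9, 104 and 6549 (OC.0) in OC, and 7.60, 9.67 and 983 (CC.1) in CC, with none of the 14 at 0 in OC.0, CO.1 or CC.1. Macrophage markers, 12 of 12 listed, summed to 666 to 712 in OO, 580 and 650 in CO, 491 to 760 (OC.1) in OC and 425 to 563 in CC.

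Promoters are shown for the called genes, Hsd17b7 and Tm7sf2, and for Hmgcs1, Cyp51 and Insig1, which passed the test in no comparison. They are shown because SREBP2 acts with the factors NF-Y, which reads CCAAT, and Sp1, which reads GGGCGG. Each line holds the 250 bases before the RefSeq start site on the gene's strand (GRCm38.p6), with CCAAT or its reverse complement ATTGG in capitals, and in Hmgcs1 also a match to the sterol element core TCACNCCAC. The windows are chr1:169969206-169969455 (minus strand) for Hsd17b7, chr19:6067851-6068100 (minus) for Tm7sf2, chr13:119690101-119690350 (plus) for Hmgcs1, chr5:4104698-4104947 (minus) for Cyp51 and chr5:28071162-28071411 (plus) for Insig1. The deposited values rest on another build, and the link is by gene symbol alone.
Hsd17b7: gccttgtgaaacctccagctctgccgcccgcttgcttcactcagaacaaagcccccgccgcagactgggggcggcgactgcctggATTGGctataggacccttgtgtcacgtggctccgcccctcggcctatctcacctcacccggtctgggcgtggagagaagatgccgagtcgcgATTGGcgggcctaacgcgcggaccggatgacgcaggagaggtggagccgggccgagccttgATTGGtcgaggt
Tm7sf2: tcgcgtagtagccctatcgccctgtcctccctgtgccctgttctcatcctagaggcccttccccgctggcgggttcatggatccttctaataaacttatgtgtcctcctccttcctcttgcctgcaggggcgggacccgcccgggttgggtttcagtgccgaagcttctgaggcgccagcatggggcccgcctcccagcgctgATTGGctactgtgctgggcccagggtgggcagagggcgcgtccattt
Hmgcs1: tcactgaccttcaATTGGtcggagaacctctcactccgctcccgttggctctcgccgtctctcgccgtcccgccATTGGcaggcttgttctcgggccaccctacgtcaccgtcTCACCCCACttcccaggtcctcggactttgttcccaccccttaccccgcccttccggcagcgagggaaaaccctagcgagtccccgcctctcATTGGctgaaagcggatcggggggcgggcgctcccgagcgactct
Cyp51: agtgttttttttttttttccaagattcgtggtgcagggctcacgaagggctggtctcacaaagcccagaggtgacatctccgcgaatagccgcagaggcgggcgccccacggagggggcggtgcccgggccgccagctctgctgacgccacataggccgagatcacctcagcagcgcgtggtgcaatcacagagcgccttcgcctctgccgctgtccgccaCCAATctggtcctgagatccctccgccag
Insig1: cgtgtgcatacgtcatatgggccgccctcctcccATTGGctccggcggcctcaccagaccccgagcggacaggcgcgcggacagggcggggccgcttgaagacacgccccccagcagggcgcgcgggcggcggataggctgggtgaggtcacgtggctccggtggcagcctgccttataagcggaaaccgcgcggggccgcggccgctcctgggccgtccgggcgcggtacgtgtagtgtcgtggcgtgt
In these lines CCAAT starts 165, 73 and 12 bases before the start site in Hsd17b7, 47 before it in Tm7sf2 and 29 before it in Cyp51.

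RefSeq promoter windows, 250 bases before to 50 after the start site, were matched for 23 of the 28 members, and Stard4, Fdft1, Fdps, Npc1 and Sqle are named only. On either strand, CCAAT was found in 20 of the 23 (87.0%), in all 9 matched late sterol genes, 6 of 7 early genes and 5 of 7 uptake and regulator genes. It was found in 41.1% of 27025 genes with a window and in 42.8% of the 9184 of them that were measured. GGGCGG was found in 20 of 23 members (87.0%), against 67.4% of measured genes. TCACNCCAC was found in 1 of 23, Hmgcs1, against 1.47% of measured genes, and the E-box CACGTG in 5 of 23 (21.7%), against 12.0%. No searched motif contains another, and a match is a description of the sequence and not a binding site. Promoters with CCAAT included those of both called genes and of genes that barely moved, such as Ebp and Sc5d.

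Across the 11 libraries the medians of the early and late parts varied more than that of the uptake and regulator part. A library's level for a part is given as the median over its genes of the log2 value minus the gene's CC mean. Opposite moves of single genes cancel in it, as in OC.1, where Insig1 stood at 1.96 and Insig2 at -1.14. The early mevalonate median was -0.51, 0.10 and 0.76 in OO.0, OO.1 and OO.2, -0.44 and 0.25 in CO.0 and CO.1, 0.30, 1.87 and 0.50 in OC.0, OC.1 and OC.2, and -0.25, 0.53 and -0.23 in CC.0, CC.1 and CC.2. The late sterol median was -0.77, -0.54 and 0.29 in OO, -0.80 and -0.18 in CO, 0.29, 1.29 and 0.31 in OC, and -0.09, 0.26 and -0.11 in CC, in the same order of libraries. The uptake and regulator median stayed between -0.29 (OO.0) and 0.28 (OO.2) in OO, at -0.13 and -0.20 in CO, between -0.08 and 0.16 in OC, and between -0.02 and 0.06 in CC. All OC libraries lay above the CC mean in the early and late parts, but so did CC.1. Its early median (0.53) was above those of OC.0 and OC.2, and its late median (0.26) was just below theirs (0.29 and 0.31). The OO and CO libraries lay on both sides of the CC mean in the early part. In the late part 2 of 3 OO libraries and both CO libraries lay below it. The SD of these medians within groups was 0.64 for the early part, 0.47 for the late part and 0.18 for uptake and regulators.

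**Figure D1:**
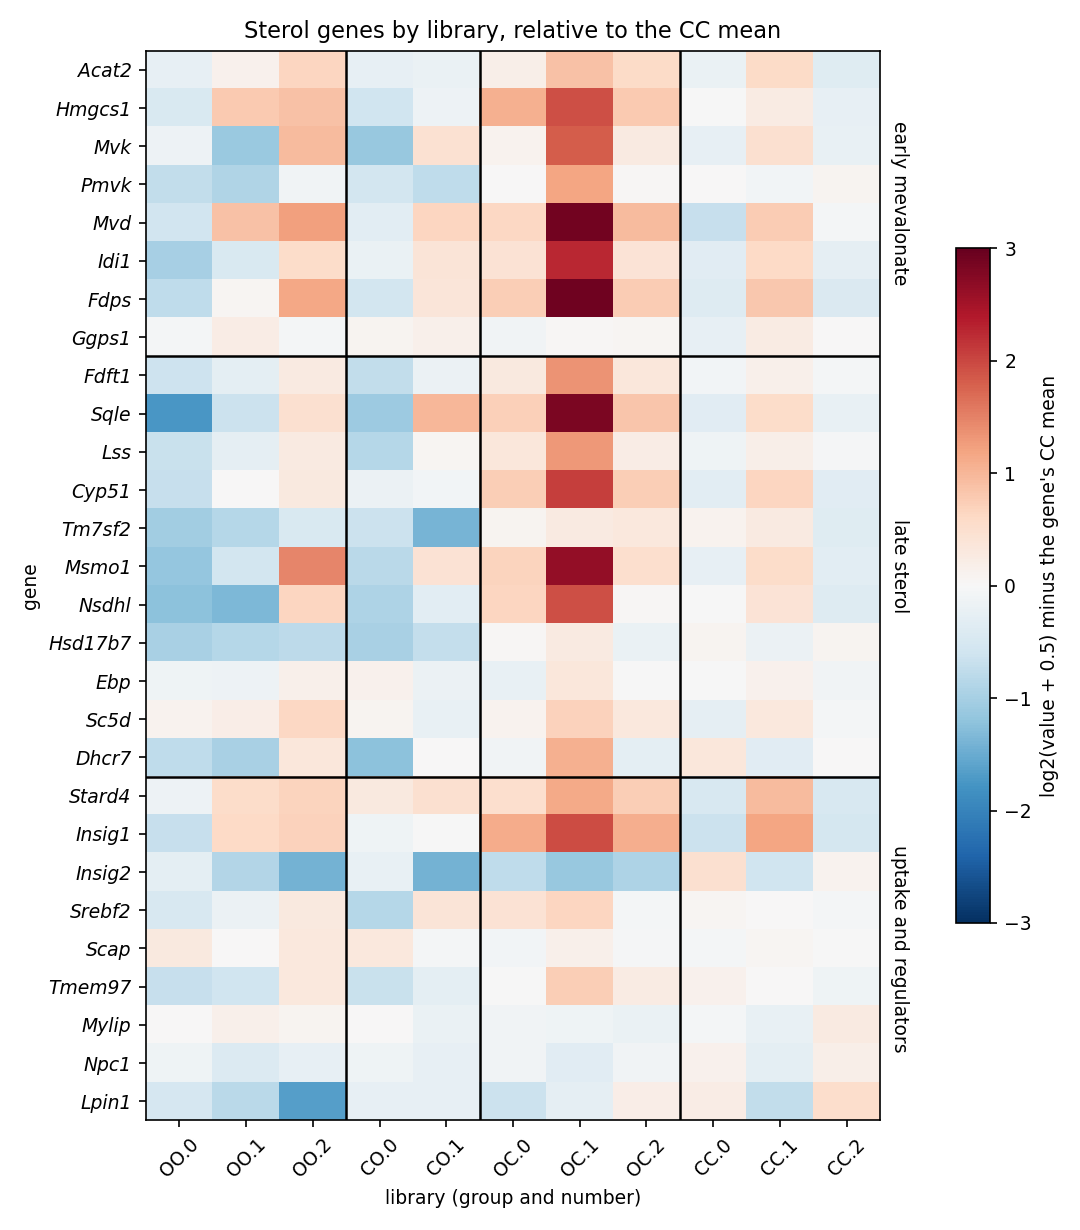
Log2(value + 0.5) of each of the 28 genes minus the gene's CC mean, as colour, with genes in rows by part and libraries in columns, grouped OO, CO, OC and CC. OC.1 is the reddest column, with the highest value of 21 genes, a rank not counted over all genes. The rows of Hsd17b7 and Tm7sf2 are blue in every OO and CO library, as are those of Pmvk, Insig2, Npc1 and Lpin1.

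**Figure D2:**
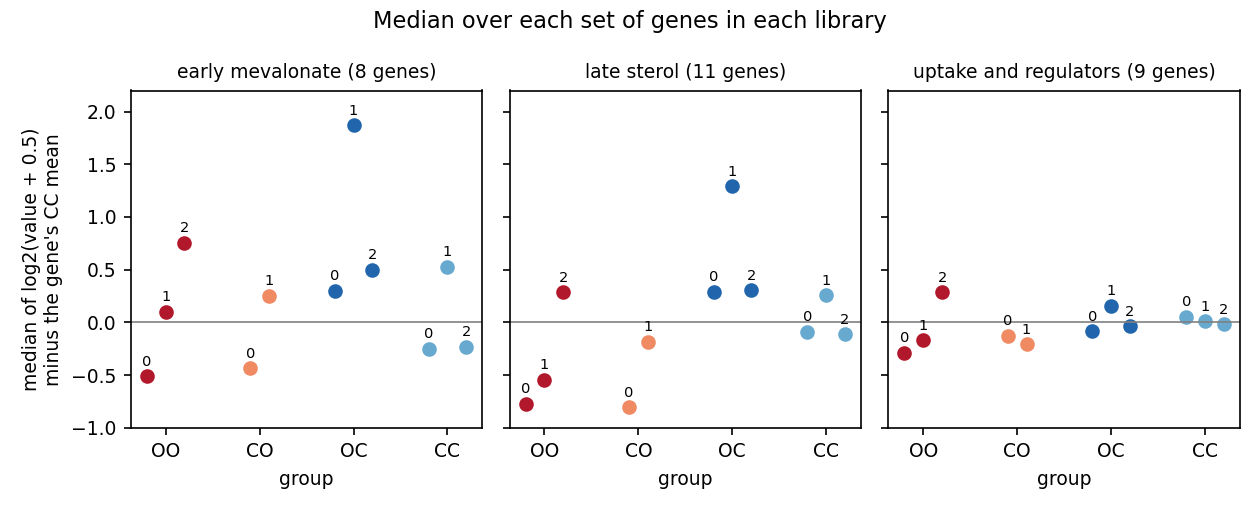
Median over the genes of each part of log2(value + 0.5) minus the gene's CC mean (vertical axis, log2), with 1 point per library, numbered within its group. The early median reaches 1.87 in OC.1, and the uptake and regulator medians all lie between -0.29 and 0.28.

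In the early mevalonate steps 0 of 8 genes passed the test in any comparison. Hmgcs1, the cytosolic HMG-CoA synthase, had 100, 236 and 253 scaled counts in OO, 90.3 and 122 in CO, 289, 524 and 236 in OC, and 136, 163 and 115 in CC. All 3 OC values lay above all 3 CC values, and OO overlapped OC. The difference was 1.27 ± 0.35 (log2, SE) for OC minus CC, with an adjusted p of 0.923, and -0.86 ± 0.35 for OO minus OC, with an adjusted p of 0.561. The second difference was -0.53 without OC.1 and -0.43 without OO.0. Pmvk, phosphomevalonate kinase, had 7.82, 6.91 and 12.4 scaled counts in OO, 9.0 and 7.64 in CO, 13.5, 30.9 and 13.8 in OC, and 13.5, 12.5 and 14.1 in CC. Its 5 values from mice on the obesogenic diet all lay below the 6 from mice on chow, by as little as 12.4 in OO.2 against 12.5 in CC.1. The share of all genes that separate by offspring diet in this way was not counted. The average offspring diet effect of Pmvk was -0.82 ± 0.22 with an adjusted p of 0.0587 in limma's test.

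Idi1, isopentenyl diphosphate isomerase, had 19.1, 28.2 and 56.9 scaled counts in OO, 33.5 and 51.1 in CO, 52.2, 187 and 52.1 in OC, and 30.8, 58.9 and 32.2 in CC. Mvd, mevalonate diphosphate decarboxylase, had 1.60, 5.25 and 6.86 in OO, 2 and 4.37 in CO, 4.35, 23.0 and 5.58 in OC, and 1.43, 4.86 and 2.49 in CC. Both were several times higher in OC.1 than in any other library, and their other values overlapped between groups. Idi1 differed by -1.34 ± 0.50 in OO minus OC (adjusted p = 0.525) and Mvd by 1.5 ± 0.63 in OC minus CC (adjusted p = 0.923). Without OC.1 these differences were -0.73 for Idi1 and 0.79 for Mvd. Fdps, farnesyl diphosphate synthase, ranged from 7.11 to 28.6 outside OC.1 and stood at 97.0 in it. Mvk, mevalonate kinase, ranged from 2.17 to 11.0 outside OC.1, with 20.2 in it, and Acat2, the acetyl-CoA acetyltransferase that starts the pathway, from 13.8 to 33.8 over all libraries. Acat2 has a near-identical neighbour, Acat3, between which the authors' counting could split reads. In the annotation Fdps shares 26.7% of its exon bases with the predicted gene Gm43738 on the same strand, and Hmgcs1 12.1% and Idi1 9.22% with predicted genes on the opposite strand. Ggps1, geranylgeranyl diphosphate synthase on the branch to protein prenylation, did not share the pattern and ranged from 8.4 to 12.0.

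In the late sterol steps Hsd17b7 (ENSMUSG00000026675) had 43.7, 47.6 and 49.5 scaled counts in OO, 43.8 and 52.2 in CO, 88.6, 103 and 75.3 in OC, and 91.3, 76.7 and 91.4 in CC. The 5 values from obesogenic-fed offspring lay below the 6 from chow-fed offspring, with a gap between 52.2 and 75.3. As for Pmvk, such a separation was not counted over all genes. The mean was 46.9 ± 2.98 in OO and 48.0 ± 5.89 in CO (SD, n = 3 and 2), against 89.0 ± 13.9 in OC and 86.4 ± 8.46 in CC (SD, n = 3 each). Hsd17b7 fell after either maternal diet, with -0.91 ± 0.13 for OO minus OC (limma, adjusted p = 0.0222), -0.84 ± 0.15 for CO minus CC (adjusted p = 0.0238) and -0.87 ± 0.10 for the average (adjusted p = 0.00129). The average stayed past the threshold without each library in turn, with adjusted p of 0.00159 to 0.00617. The OO minus OC call ended without CC.2, OC.0, OC.1 or any 1 of the 3 OO libraries (adjusted p up to 0.117, log2 difference -1.02 to -0.80), and the CO minus CC call without CC.0, CC.2, CO.0 or CO.1 (adjusted p up to 0.0964, log2 difference -0.97 to -0.72). Maternal diet gave Hsd17b7 differences of 0.03 in OC minus CC and -0.03 in OO minus CO.

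Tm7sf2 (ENSMUSG00000024799) had 37.8, 43.7 and 57.1 scaled counts in OO, 49.9 and 29.7 in CO, 83.6, 95.8 and 97.8 in OC, and 85.4, 94.7 and 60.9 in CC. Here too the 5 obesogenic-fed values lay below the 6 chow-fed ones, but only just, at 57.1 in OO.2 and 60.9 in CC.2, and again all genes were not counted. Tm7sf2 fell on the average of both maternal diets by 1.02 on the log2 scale (SE 0.16, limma, adjusted p = 0.00690), and kept the call without each library in turn, with adjusted p of 0.00427 to 0.0276. Taken singly the differences were -1.01 ± 0.22 for OO minus OC (adjusted p = 0.148) and -1.03 ± 0.24 for CO minus CC (adjusted p = 0.0600), the second being -0.66 without CO.1. In the annotation 12.1% of its exon bases are shared with Vps51 on the same strand, and its values were whole multiples of 1 read in 1 of 11 libraries, against all 11 for the other 27 members. Vps51 differed by 0.14 ± 0.09 in the average offspring diet effect (adjusted p = 0.436).

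Cyp51, the sterol C14-demethylase, had 29.4, 48.1 and 58.3 scaled counts in OO, 42.5 and 44.8 in CO, 79.4, 202 and 80.3 in OC, and 38.5, 75.4 and 37.5 in CC. All OC values lay above all OO and all CC values, the closest being 79.4 in OC.0 and 75.4 in CC.1. The difference was -1.31 ± 0.37 for OO minus OC (adjusted p = 0.317) and 1.18 ± 0.37 for OC minus CC (adjusted p = 0.923), and without OC.1 it was -0.87 and 0.74. Fdft1, squalene synthase, had 27.1, 34.0 and 50.2 in OO, 24.8 and 36.7 in CO, 51.2, 106 and 53.0 in OC, and 39.2, 46.4 and 39.9 in CC. Its OC values lay above all CC and OO values, by as little as 51.2 against 50.2 for OC.0 and OO.2, and it differed by -0.87 ± 0.28 in OO minus OC (adjusted p = 0.410), or -0.53 without OC.1. In the annotation Fdft1 shares 18.3% of its exon bases with Ctsb on the opposite strand, and whether the counting used strand is not stated in any source used.

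The other 7 late genes all had their highest value in OC.1 and split in 2 kinds by the width of their range. Sqle (squalene epoxidase), Msmo1 (the C4 methyl oxidase), Nsdhl (which removes the C4 carboxyl group), Lss (lanosterol synthase) and Dhcr7 (which makes cholesterol from 7-dehydrocholesterol) had their highest value in OC.1, at 85.0, 240, 44.4, 60.1 and 37.3 scaled counts. Outside OC.1 they ranged from 3.07 to 23.6 for Sqle, 16.9 to 107 for Msmo1, 4.15 to 17.97 for Nsdhl, 13.2 to 30.7 for Lss and 7.17 to 22.2 for Dhcr7. Sqle had the largest fitted difference of any member in OO minus OC, -2.10 ± 0.68, with an adjusted p of 0.410. Ebp, the sterol isomerase, ranged only from 117 to 173 and Sc5d, the C5-desaturase, from 155 to 301 over all 11 libraries, with differences of at most 0.08 on the log2 scale in size for either offspring diet comparison.

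**Figure D3:**
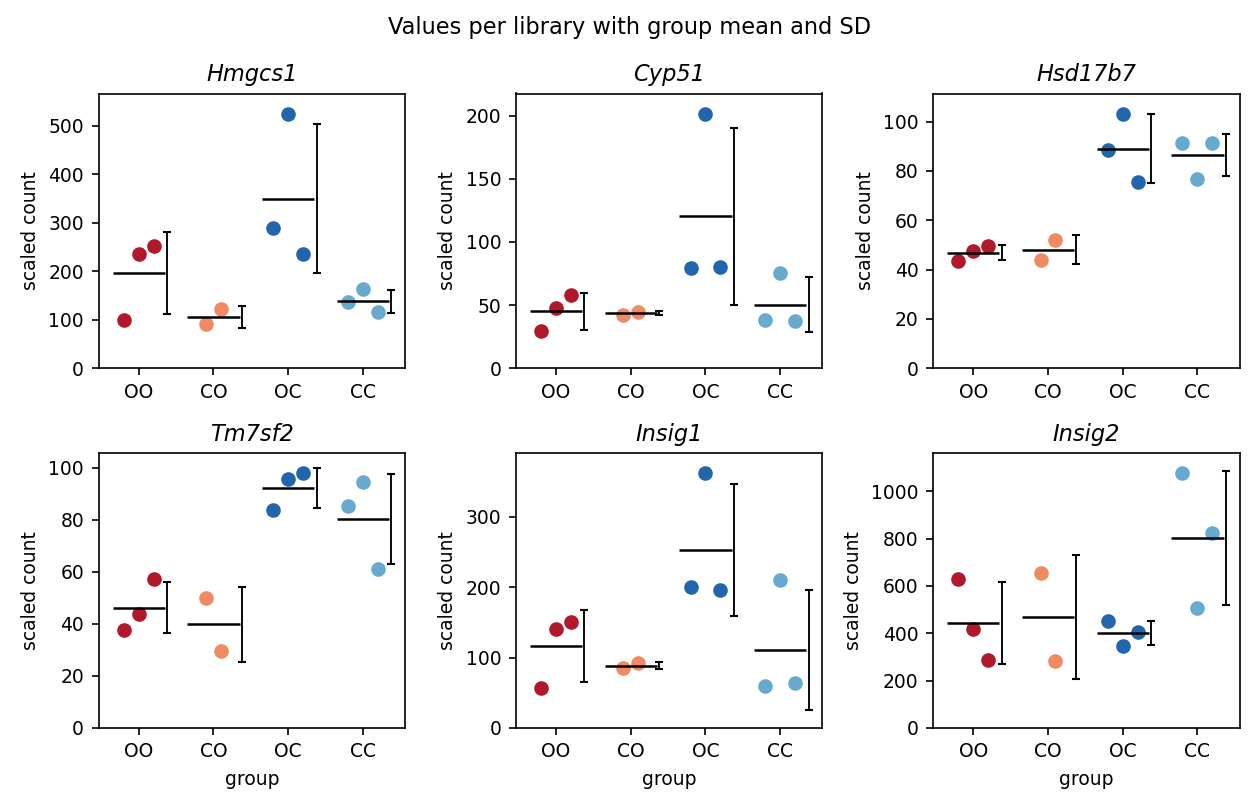
Scaled counts (linear axis from 0) of 6 genes, with 1 point per library in the groups OO, CO, OC and CC, the group mean as a horizontal line and the SD as a bar beside it (n = 3, CO 2). Hsd17b7 and Tm7sf2 separate by offspring diet, a separation not counted over all genes, and Hmgcs1, Cyp51 and Insig1 are highest in OC.1.

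Among the regulators, Insig1, itself a target of SREBP2, had 57.2, 141 and 150 scaled counts in OO, 84.7 and 91.7 in CO, 201, 362 and 196 in OC, and 59.1, 210 and 63.6 in CC. The 3 OC values were above all 5 values of OO and CO, and CC.1 lay inside the OC range. Insig1 differed by -1.18 ± 0.47 in OO minus OC (adjusted p = 0.553; -0.74 without OO.0) and by 1.39 ± 0.47 in OC minus CC (adjusted p = 0.923). Insig2, whose liver transcript is known to fall with insulin, had 627, 417 and 286 in OO, 654 and 284 in CO, 451, 347 and 404 in OC, and 1075, 508 and 824 in CC. All OC values lay below all CC values, and OO and CO spanned the OC values. The library with the lowest Insig2 in CC, CC.1, had the highest Insig1 of that group. Insig2 differed by -0.94 ± 0.36 in OC minus CC (adjusted p = 0.923) and by 0.08 ± 0.36 in OO minus OC (adjusted p = 0.977).

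Srebf2 had 14.7, 18.3 and 25.2 scaled counts in OO, 11.2 and 27.1 in CO, 28.1, 32.2 and 19.8 in OC, and 21.4, 20.8 and 19.6 in CC. The groups overlapped, the CC values were close together and CO.0 held the lowest value. Its smallest adjusted p over the 6 comparisons was 0.429, for the average offspring diet effect (-0.35 ± 0.22). Tmem97, the sigma-2 receptor that binds Npc1, had 24.7, 26.3 and 50 in OO, 25.2 and 32.7 in CO, 40.1, 66.8 and 47.9 in OC, and 43.9, 40.4 and 36.4 in CC. OO.2 lay within the chow-fed values and the 4 other obesogenic-fed values lay below all of them, with an average effect of -0.56 ± 0.19 (adjusted p = 0.130). Stard4, a cytosolic sterol carrier, had 36.7, 60.8 and 65.2 in OO, 50.3 and 57.4 in CO, 59.0, 90.6 and 69.4 in OC, and 29.2, 80.4 and 29.6 in CC, so that CC.1 stood far above the other CC libraries.

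The remaining 4 uptake and regulator genes varied less, apart from Lpin1. Scap ranged from 82.7 to 109 scaled counts, Mylip, the ubiquitin ligase that degrades the LDL receptor, from 18.7 to 26.7, and Npc1, the lysosomal cholesterol exporter, from 152 to 229. Lpin1, a phosphatidate phosphatase and nuclear cofactor, had 92.0, 73.8 and 41.2 in OO, 111 and 110 in CO, 83.9, 109 and 149 in OC, and 152, 77.8 and 188 in CC. It differed by -0.76 ± 0.34 in OO minus OC (adjusted p = 0.618; -0.43 without OO.2) and was highest in CC.2, not in OC.1.

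After obesogenic dams the offspring diet comparison OO minus OC called 1 of 28 members, Hsd17b7, lower, and 0 higher. Over all 12086 genes 0.165% were called, 0.091% lower. At an unadjusted p under 0.05, 13 members stood out (46.4%; 3 early, 7 late and 3 of uptake and regulation), against 8.01% of all genes. The median of the fitted log2 differences was -0.92 over the early genes, -0.91 over the late ones and -0.45 over uptake and regulators, against -0.00020 over all genes, and 24 of 28 were below 0. Groups did not overlap in 8 members. Those lower in OO were Pmvk, Fdft1, Sqle, Cyp51, Tm7sf2, Hsd17b7 and Insig1 (25% of members, against 6.14% of all genes), and Mylip was higher (3.57%, against 6.6%). Without OC.1 the medians were -0.41, -0.67 and -0.28, and 5 members were at an unadjusted p under 0.05. The share of all genes at this cut was not counted without OC.1.

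After control dams CO minus CC again called 1 member, Hsd17b7, lower, where 1.79% of all genes were called, 0.778% lower. Only 2 members, Hsd17b7 and Tm7sf2, were at an unadjusted p under 0.05 (7.14%), against 16.8% of all genes. The median difference was -0.16 over the early genes, -0.41 over the late ones and -0.19 over uptake and regulators, against -0.01 over all genes, and all 11 late genes were below 0. Leaving out CO.1 gave an early median of -0.44, but leaving out CO.0 gave 0.25 and leaving out CC.1 gave 0.15, so its sign rests on single libraries. The late median was -0.18 without CO.0 and -0.80 without CO.1, and the uptake and regulator median -0.10 without CC.2 and -0.13 without CO.1. Groups did not overlap in 5 members, all lower in CO (Pmvk, Fdft1, Tm7sf2, Hsd17b7 and Tmem97, 17.9% of members), a share that equals the 17.9% of all genes, and 0 members were higher, against 17.0%.

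On the average of both maternal diets Hsd17b7 and Tm7sf2 were called lower (7.14% of members), against 3.96% of all genes called and 1.72% called lower. At an unadjusted p under 0.05 there were 9 members (32.1%; 2 early, 6 late, 1 of uptake and regulation), against 19.4% of all genes. The interaction of offspring and maternal diet, which asks whether the offspring diet difference depends on the dam, called 0 members with limma, edgeR and DESeq2, against 0.0331% of all genes with limma. At an unadjusted p under 0.05 limma had 0 members, against 4.56% of all genes, and edgeR and DESeq2 had 1 each. The offspring diet differences after obesogenic dams (median -0.83 over all members, -0.47 without OC.1) were thus not shown to differ from those after control dams (-0.21, or -0.13 without CO.0, -0.32 without CC.2 and -0.44 without CO.1). The interaction median was -0.38 over all members and -0.06 without OC.1. The interaction had a wide error, at -1.18 ± 0.56 for Cyp51 and -2.06 ± 1.03 for Sqle.

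**Figure D4:**
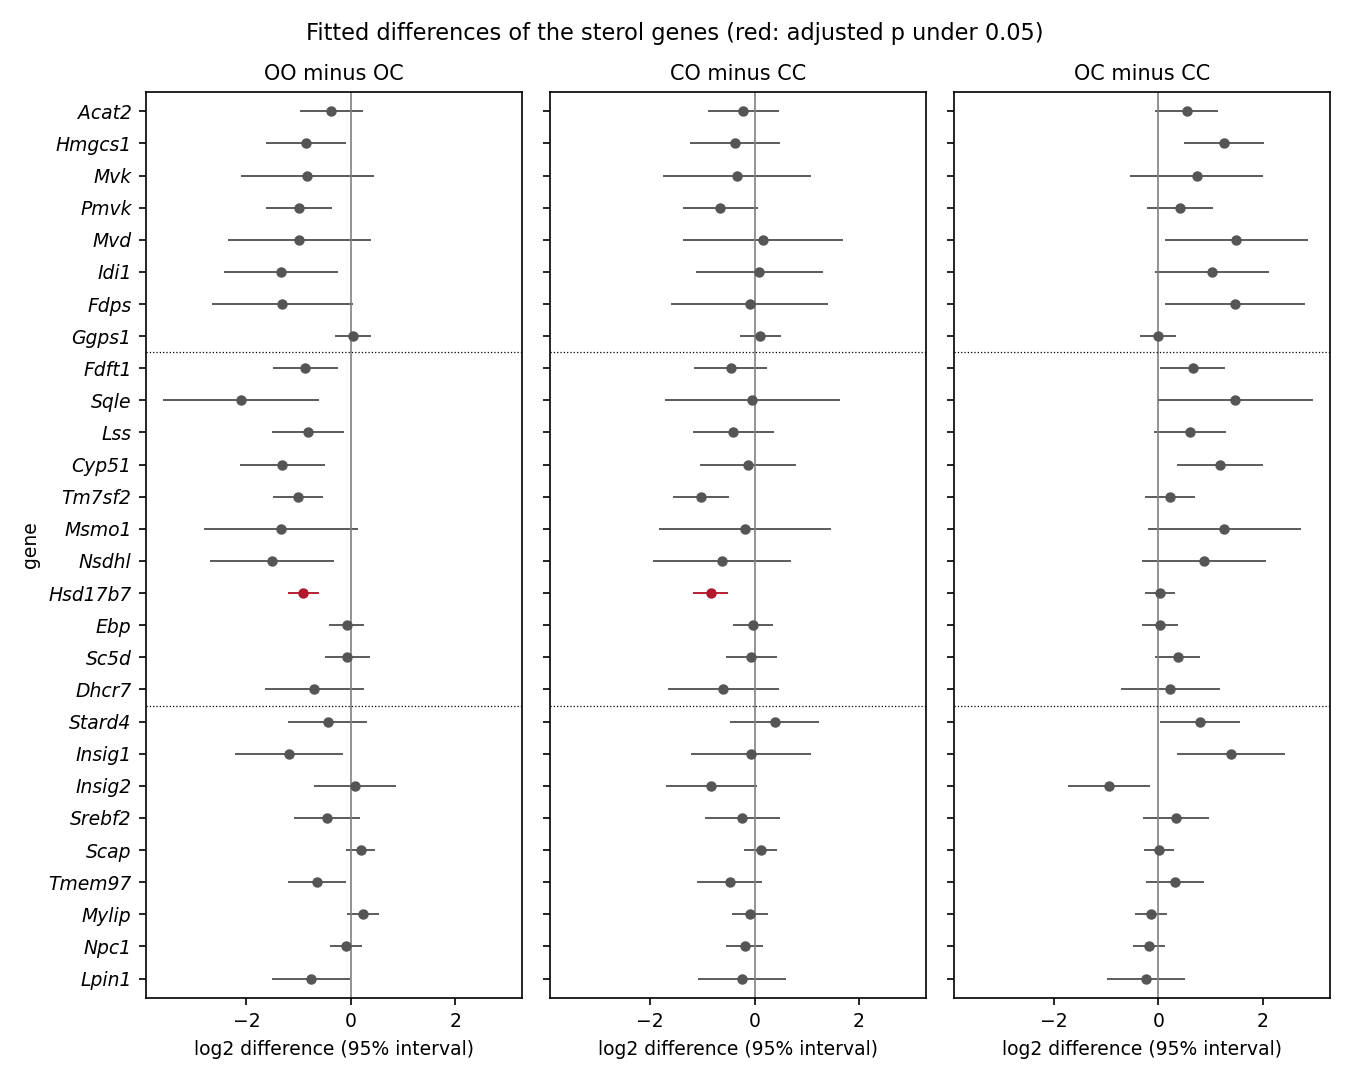
Fitted log2 differences (points) with 95% intervals (lines) of the 28 genes for OO minus OC, CO minus CC and OC minus CC, by part, with adjusted p under 0.05 in red. Hsd17b7 is the one red point in the 2 offspring diet panels, and 24 of 28 points lie left of 0 in OO minus OC.

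Maternal diet was compared at each offspring diet. OC minus CC called 0 of 28 members and 0.0% of all genes with limma, and 0 members with edgeR and DESeq2. At an unadjusted p under 0.05 there were 8 members (28.6%), Hmgcs1, Mvd, Fdps, Fdft1, Cyp51, Stard4 and Insig1 higher and Insig2 lower, against 5.26% of all genes, and 10 with either count test. The median was 0.88 over the early genes, 0.61 over the late ones and 0.01 over uptake and regulators. Groups did not overlap in 5 members that were higher in OC, Hmgcs1, Fdft1, Sqle, Lss and Cyp51 (17.9%, against 5.32% of all genes), and in 1 that was lower, Insig2 (3.57%, against 6.14%). Without OC.1 the 3 medians were 0.40, 0.27 and -0.06 and 2 members remained at an unadjusted p under 0.05. The share of all genes at this cut was counted neither without OC.1 nor with the count tests. The OC libraries enter this comparison and OO minus OC alike, with opposite sign, so that the comparisons are not independent.

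OO minus CO called 0 members with all 3 tools, against 0.0414% of all genes with limma, and 0 were at an unadjusted p under 0.05, against 5.92% of all genes, with 1 member each in edgeR and DESeq2. Its medians were 0.24, 0.10 and 0.08 over the early, late and uptake parts, and each was below 0 without CO.0 (-0.11, -0.15 and -0.01) or OO.2 (-0.10, -0.12 and -0.08). Lpin1 was lower in OO without overlap (3.57%, against 9.48% of all genes) and Sc5d higher (3.57%, against 10.5%).

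OC.1 set the upper end of the pathway. It held the highest of the 11 values in 7 of 8 early genes, 10 of 11 late genes and 4 of 9 uptake and regulator genes. Highest and lowest ranks were not counted over all genes, so no background share stands beside them. Relative to the mean of OC.0 and OC.2 it stood at 4.63 times for Mvd, 4.58 for Fdps, 4.23 for Sqle, 4.13 for Msmo1 and 3.59 for Idi1, but at 1.26 for Hsd17b7, 1.06 for Tm7sf2 and 1.04 for Ggps1. Ratios near 1 were not particular to the called genes, as Mylip stood at 1.02 and Scap at 1.16. Hsd17b7 still had its highest value in OC.1, and its OO minus OC call ended without OC.1 (limma, adjusted p = 0.0605). OC.0 and OC.2 alone were above every CC library for 5 genes, Hmgcs1, Fdft1, Sqle, Lss and Cyp51. The means of these genes in OC.0 and OC.2 were 1.90, 1.25, 1.67, 1.21 and 1.58 times the CC mean. The share of all genes with OC.0 and OC.2 above every CC library was not counted. In CO minus CC, which also sets 2 libraries against CC, 17.0% of all genes were higher without overlap. That comparison called 1.79% of all genes and OC minus CC 0.0%, so the 17.0% is not a background for OC.0 and OC.2. At the other end OO.0 held the lowest value of 8 genes, among them Sqle, Msmo1 and Insig1, and CO.0 of 6, among them Hmgcs1, Fdft1 and Dhcr7. OC.1 was also the OC library with high acute phase genes, and CO.1 had more of them. CO.1 held the highest value of 0 members. Its early median was above that of CO.0 (0.25 against -0.44), as was its late median (-0.18 against -0.80). Its uptake and regulator median was below that of CO.0 (-0.205 against -0.126). The part of the acute phase genes in these levels was not tested.

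Neighbouring pathways were read from 3 further lists, which were chosen with earlier results of these data known. Their shares beside those of all genes are descriptions and not tests. Among 27 measured of 28 other sterol pathway genes (processing, degradation, esterification and cofactors), Erlin1, which helps degrade HMG-CoA reductase, rose in CO minus CC. The difference was 1.38 ± 0.26 (limma, adjusted p = 0.0303), with 80.1 ± 10.9 in CO (n = 2) and 31.7 ± 10.6 in CC (n = 3). In the average Erlin1 rose by 0.87 ± 0.17 (adjusted p = 0.0192). It averaged 54.9 ± 2.18 in OO and 43.3 ± 9.03 in OC (n = 3 each), and its interaction was -1.02 ± 0.35 (adjusted p = 0.936). Rdh11, a retinol dehydrogenase, fell in the average by 0.997 (adjusted p = 0.0110), with 15.5 ± 2.26 in OO and 12.6 ± 5.72 in CO, against 33.0 ± 4.72 in OC and 23.4 ± 5.04 in CC. No other of the 27 was called in the 6 comparisons, so that 3.70% of the list was called in CO minus CC, against 1.79% of all genes, and 7.41% in the average, against 3.96%. The Rdh11 call held without each library in turn, the Erlin1 call in CO minus CC ended without CC.0, CC.2, CO.0 or CO.1 (adjusted p up to 0.170) and that in the average without CO.1 (0.0798).

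Of 17 measured of 18 LXR targets and genes of sterol efflux and bile acid synthesis, Cyp27a1 and Cyp39a1, hydroxylases of oxysterol and bile acid synthesis, fell in CO minus CC, with differences of -0.94 ± 0.15 (adjusted p = 0.0175) and -1.80 ± 0.34 (adjusted p = 0.0307). Abca1, the cholesterol exporter, rose by 0.79 ± 0.18 (adjusted p = 0.0464). On the average these 3 were called in the same directions and Pltp, a phospholipid transfer protein, fell by 0.58 (adjusted p = 0.0406). The 3 called genes in CO minus CC were 17.6% of the list, against 1.79% of all genes, and the 4 in the average 23.5%, against 3.96%. Because the list was chosen with earlier results of these data known, these shares are no test of it. The average calls of Cyp27a1, Cyp39a1 and Abca1 held without each library in turn (adjusted p up to 0.00749, 0.0175 and 0.0462), and that of Pltp ended without any 1 of 9 libraries (up to 0.113). In CO minus CC all 3 calls ended without CO.1 and without CC.0 or CC.2, that of Cyp39a1 also without CO.0 and that of Abca1 without CC.1 or any 1 OO or OC library (adjusted p up to 0.119, 0.138 and 0.279).

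Of 17 measured of 18 fatty acid synthesis genes, Mlxipl, the carbohydrate response factor ChREBP, rose in CO minus CC by 0.86 ± 0.19 (adjusted p = 0.0480) and in the average by 0.57 ± 0.13 (adjusted p = 0.0330), 5.88% of the list in each. These calls ended without any 1 of 7 and of 8 libraries, CO.1 among them (adjusted p up to 0.170 and 0.0875). Mlxipl averaged 151.6 ± 27.4 in OO, 156.5 ± 16.6 in CO, 124.7 ± 20.8 in OC and 86.9 ± 15.4 in CC. Its interaction was -0.58 ± 0.26 (limma, adjusted p = 0.936). Srebf1, the sister factor of Srebf2, averaged 64.5 ± 26.8 in OO and 25.9 ± 7.46 in CO, with a difference of 1.25 ± 0.30 that did not pass (adjusted p = 0.758). The 3 lists had 0 called genes in OO minus OC, OC minus CC, OO minus CO and the interaction with limma. At an unadjusted p under 0.05 the other sterol, LXR and fatty acid lists had 10, 8 and 5 genes in CO minus CC (37.0%, 47.1% and 29.4%, against 16.8% of all genes) and 9, 11 and 5 in the average (33.3%, 64.7% and 29.4%, against 19.4%). They had 3, 6 and 3 in OO minus OC (11.1%, 35.3% and 17.6%, against 8.01%), 1, 0 and 1 in OC minus CC (all genes 5.26%), 2, 1 and 1 in OO minus CO (5.92%) and 2, 0 and 2 in the interaction (4.56%).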

How the data were processed

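Liver RNA libraries (TruSeq, total RNA) were sequenced and aligned with Bowtie 1.2.3 to mm8, per the submitters' processing notes. The authors deposited a signal per gene and library. The numbers themselves show counts that were scaled by a single factor in each library: 95.73% to 97.34% of values in a library were whole multiples of 1 read (tolerance 0.01), although the file headers speak of CPM and raw counts. Column names give a library's group, not its labelled sample, and 1 CO sample is not analysed here. The counter, annotation and scaling method are not recorded in labels or headers.

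Symbols were found for 11965 of 12086 genes. Limma 3.58.1 (R 4.3.3) with an intensity trend was fitted to log2(value + 0.5) of all 11 libraries with 1 mean per group (7 residual and 4.66 prior degrees of freedom), with Benjamini-Hochberg adjustment at 0.05. The scale understates changes of low genes. All genes reached a value of 1 in at least 3 libraries. The scripts were tested on simulated data. Values in every library are given for called members, the 4 members of each part with the smallest p and Insig1, Insig2 and Srebf2; Lpin1 and the difference of Sqle were added after their values were seen. From other pathways up to 4 genes per list and comparison could be named. The members and lists were chosen with earlier results of these data known. Promoters came from RefSeq (GRCm38.p6) and shared exons from GENCODE M21.

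Alternatives were edgeR 4.0.16 and DESeq2 1.42.0 on whole reads rebuilt from the values, other pseudocounts (0.1 and 2), a mean of at least 5, no filter, median-of-ratios scaling, an adjusted p under 0.1 and leaving out libraries. Where 1 CO library is left, it is assumed to vary like the others. The planned unit was CPM, and the same test was kept for the signal. At an unadjusted p under 0.05 all genes were counted only in the limma fit of all 11 libraries. Member counts at this cut in the alternatives therefore have no background share. Intervals and read values cover counting and library spread only.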

Additional observations from a re-analysis of the deposited data

How the results depend on the processing

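Pseudocounts of 0.1 and 2, median-of-ratios scaling, a mean of at least 5 and no filter left every count of called members, and of called genes within 1.5 times, as it was. The average offspring diet calls of Hsd17b7 and Tm7sf2 held under every alternative, the weakest being without OC.0 and CO.1, the libraries with high pancreas transcripts (adjusted p = 0.0152 and 0.0486). DESeq2 called 2 members in CO minus CC (456 genes in all), 3 in OO minus OC (106) and 4 in the average (770), and 16 genes in OO minus CO; it and edgeR each had 1 member at an unadjusted p under 0.05 in OO minus CO and 1 in the interaction. An adjusted p under 0.1 gave 2 members and 472 genes in CO minus CC and 916 genes in the average.

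Without OC.0 and CO.1 there were 0 called members in OO minus OC (12 genes) and 0 in CO minus CC (16 genes), 134 genes in the average with an uptake and regulator median of -0.15, and at an unadjusted p under 0.05 13 members in OC minus CC and 1 in OO minus CO. Without OC.1 and CO.1, the libraries with high acute phase genes, there were 0 called members in CO minus CC (14 genes), 35 genes in OO minus OC and 250 in the average, with an uptake and regulator median of -0.147. At an unadjusted p under 0.05 there were then 6 members in OO minus OC, 6 in CO minus CC, 3 in OC minus CC and 2 in OO minus CO. Fewer libraries enter these fits. In the neighbouring lists every CO minus CC call ended without either pair, and edgeR did not call Abca1 or Mlxipl there. In the average both pairs ended the calls of Erlin1 and Mlxipl, OC.0 and CO.1 that of Pltp, and OC.1 and CO.1 that of Abca1, and a mean of at least 5 ended the CO minus CC call of Mlxipl.

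Leaving out each library in turn, called members ranged from 0 to 1 in OO minus OC, 0 to 2 in CO minus CC and 2 to 5 in the average. Called genes ranged from 8 to 30, 19 to 233 and 253 to 483 in these comparisons, from 0 to 2 in OC minus CC and from 4 to 20 in OO minus CO. Members at an unadjusted p under 0.05 ranged from 5 (without OC.1) to 16 (without OO.2) in OO minus OC, 2 to 5 in CO minus CC, 4 (without CO.0) to 13 (without OO.2) in the average, 2 (without OC.1, CC.0 or CC.2) to 13 (without CC.1) in OC minus CC, 0 to 2 in OO minus CO and 0 to 6 in the interaction. The uptake and regulator median ranged from -0.471 to -0.206 in OO minus OC, -0.369 to -0.109 in the average and -0.363 to 0.0218 in the interaction. The cause of these shifts was not tested, and the share of all genes at an unadjusted p under 0.05 was not counted in these fits. No paired analysis was possible because the labels give no replicate numbers, and the library numbers come from column names that are not tied to labelled animals. Mvd and Mvk rest on few reads in the shallower libraries, where 1 read is worth up to 0.276 scaled counts.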
